A study of Sus scrofa with 24 samples.

Results

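The comparison described here sets the vein wall at the venous anastomosis of an arteriovenous haemodialysis graft against external jugular vein taken as a control, both from pigs at day 14 after graft placement. Its members are 8 of the 24 samples of the series: 4 venous anastomosis samples, each labelled with Cy5 (the red dye), and 4 external jugular vein control samples, each labelled with Cy3 (the green dye), which shared 4 two-colour Agilent arrays by replicate number. All 43603 probes that are not array controls were read, and 33318 features were tested, of which 5903 carried a gene symbol. The study placed such grafts in pigs in independent experiments, called the replicates biological replicates, and sampled the anastomosis, the vein downstream of it and the jugular control at day 5 and day 14. The labels give no strain, sex, age or graft material, and they do not say whether the 2 sites of 1 replicate number came from 1 animal, although the names of the deposited files give both the same pig number. Every anastomosis sample was red and every control sample was green, so site and dye cannot be told apart in this comparison. In whole vein wall, fewer cells of a type and less RNA per cell cannot be told apart either.

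Haemodialysis grafts join an artery to a vein so that blood can be withdrawn and returned at high flow, and they often fail because the vein wall thickens inward at the venous anastomosis, a change known as neointimal hyperplasia. A resting vein wall holds endothelium, contractile smooth muscle and an outer adventitia of fibroblasts, fat and nerve. Injury, altered flow and a foreign material are known to bring in macrophages, which can fuse into giant cells, and to turn smooth muscle cells and fibroblasts toward proliferation and matrix production.

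The probes are short DNA strands that each read 1 stretch of a transcript. The letters AATAAA, the canonical polyadenylation signal, were found on the strand as deposited in the probes of 7 of the 10 genes described below by sample, against 12.1% of all probes, 13.2% of the features tested, 16.1% of those called higher and 17% of those called lower. A match of these letters is a description only. Stretches of at most 30 bases around the signal are shown 5′ to 3′ for these 7 genes, with the signal in capitals, so that the position each value refers to can be found in a transcript.
THBS4: tttttatatgaatgtggcAATAAAgaagag
ACP5: ttctgtcactgccaaatagttAATAAAaaa
CXCL14: ttctaagacaaaaagaaaagtAATAAAgta
TP23: gcttcgattaccAATAAAatcatctgcatc
MT1A: tgaaatatgtgagttgtAATAAAagttgtc
SCARA5: agagaaaatttcAATAAAgctaaaaacatg
PPL: tcaaagcatgaaAATAAAcacatggtggct
The probe of HSP70.2, an inducible heat shock protein of the 70 kDa class, holds no such signal, and it is shown whole because near-identical members of that family could share its signal.
HSP70.2: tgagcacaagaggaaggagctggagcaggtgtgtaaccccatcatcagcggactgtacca

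Signal was above background for most probes in each of these samples. The share of probes well above background was 71.3%, 73.9%, 77.8% and 78.7% in anastomosis replicates 1 to 4 and 56.9%, 67.7%, 80.0% and 77.8% in control replicates 1 to 4, and no spot was saturated. Each measured gene of the contractile smooth muscle and endothelial lists was well above background on at least 1 array of each group. The features had been filtered for signal, and the same held for the skeletal muscle and blood cell lists, so this does not identify the tissue. Fat transcripts set 2 samples apart from their groups. The summed level of 25 adipocyte genes was 16.56, 16.56, 19.90 and 16.73 log2 units in anastomosis replicates 1 to 4 and 16.19, 20.35, 16.33 and 16.27 in control replicates 1 to 4. Anastomosis replicate 3 and control replicate 2 were thus each more than 3 log2 units above the other 3 samples of their group. Control replicate 2 was also low in smooth muscle: 19 contractile genes summed to 19.15, 19.15, 17.90 and 18.76 at the anastomosis and to 20.40, 17.68, 20.72 and 20.37 in the controls. Values or counts of calls without replicate 2 are given with many of the results below.

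**Figure D1:**
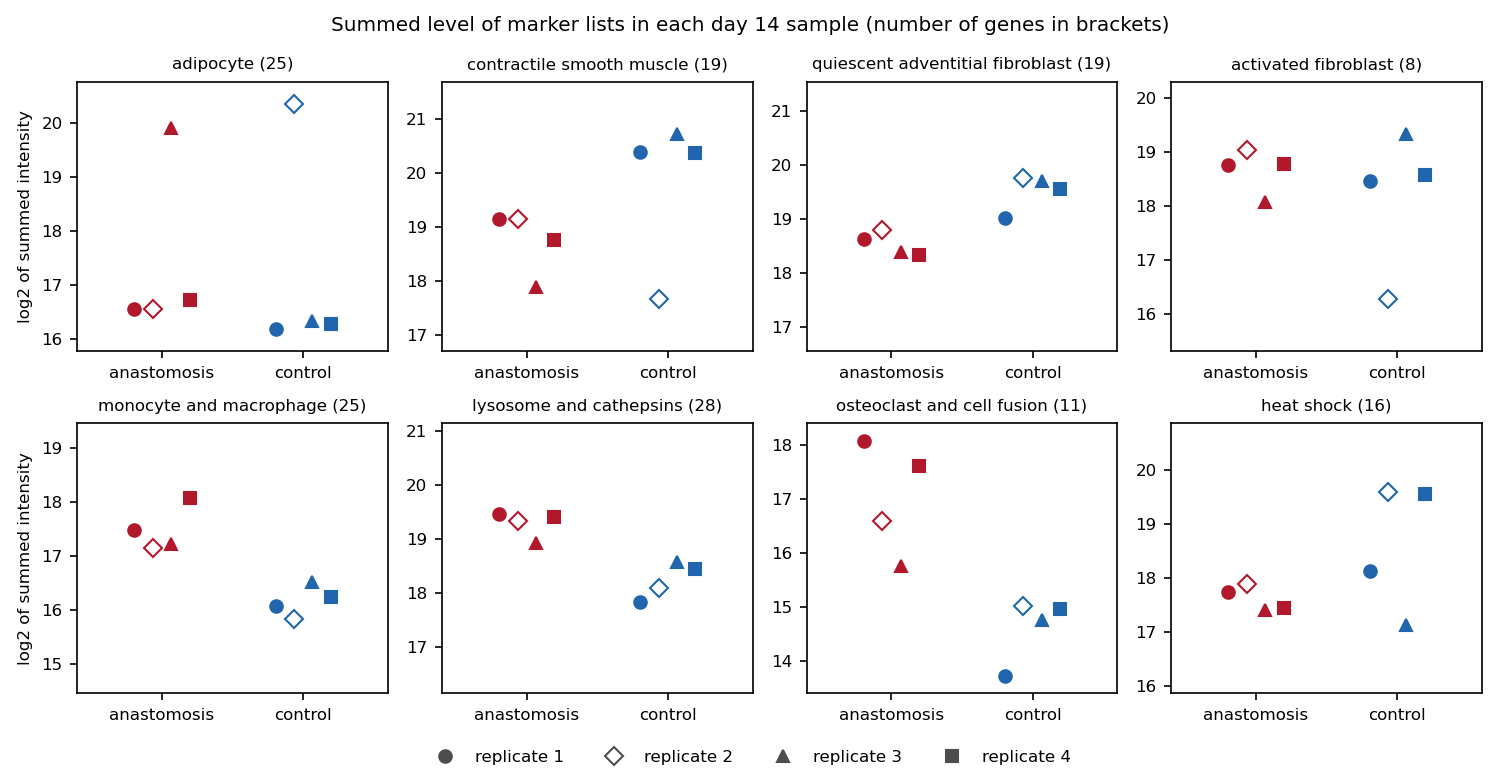
Summed level (log2 of the summed normalised intensity) of 8 marker lists in each day 14 sample, with anastomosis samples in red to the left of control samples in blue, 1 symbol per replicate and replicate 2 open. Adipocyte genes were high in anastomosis replicate 3 and control replicate 2 alone, and contractile genes were low in control replicate 2. The macrophage, lysosome, osteoclast and resting adventitial fibroblast lists did not overlap between the groups. Separation was not particular to these lists: ribosomal protein sums, not shown, did not overlap either (21.21 to 21.41 against 20.75 to 21.10 in the controls). Matricellular sums, also not shown, did overlap (18.03 to 18.58 against 16.70 to 18.04).

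A feature was called when its difference passed an adjusted p of 0.05 (limma, two-sided, Benjamini-Hochberg over all 33318 features), with the samples of 1 replicate number and day as a block. The fit held all 24 samples, so each SE and p-value draws on their spread and not on the 4 pairs alone. A fit of only the 8 samples compared called 57 features in place of the 2926 below. At the anastomosis 1580 features were called higher (4.74%) and 1346 lower (4.04%), together 2926 or 8.78% of those tested. Among those with a symbol, 400 were higher and 285 lower. A change of at least 2-fold was reached by 544 of the higher and 473 of the lower features. Of the higher calls 1480 moved up in 4 of 4 pairs, as 15.5% of all features tested did, and of the lower calls 1186 moved down in 4 of 4, as 12.9% of all did. The samples of the groups did not overlap for 716 of the higher and 578 of the lower calls, where 3.13% of all features tested lay above and 2.96% below every control sample, together 6.09%. At an unadjusted p below 0.05 there were 4229 higher (12.7%) and 4055 lower (12.2%) features. Counts of called members in the lists below are to be read beside 4.74% higher and 4.04% lower.

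The number of calls depended on which pairs were used, whereas no called feature changed sign when 1 pair was left out. Without replicate 2 there were 1854 higher calls (5.56%) and 2051 lower (6.16%), and 1181 of the higher and 1006 of the lower calls made with 4 pairs were among them. Without replicate 1 there were 769 higher (2.31%) and 588 lower (1.76%) calls, without replicate 3 there were 1517 (4.55%) and 1100 (3.3%), and without replicate 4 there were 511 (1.53%) and 247 (0.741%). In all, 379 higher and 183 lower features were called without each replicate in turn. Replicates 2 and 3 each hold 1 fat-rich sample on opposite sites, and without both of them there were 1681 higher (5.05%) and 1442 lower (4.33%) calls. Scaling mattered too: 54.0% of the calls were higher, but 74.8% were with each array's log ratios only centred on their median. That gave 10246 higher calls (30.8% of those tested) and 3459 lower (10.4%). The median difference of all features was then 0.16 on the log2 scale in place of 0.01. Such centring kept 1537 of the 1580 higher calls but only 458 of the 1346 lower calls, and 230 called features changed sign.

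Thrombospondin-4, an extracellular matrix glycoprotein, had the largest rise. THBS4 measured 14.98, 16.50, 17.10 and 14.34 log2 units in anastomosis replicates 1 to 4, against 8.77, 10.53, 8.92 and 8.30 in controls 1 to 4. The fitted difference was 6.60 ± 0.91 on the log2 scale (SE, n = 4 pairs), a 97.0-fold rise with an adjusted p of 0.00178 in limma. Every anastomosis sample lay above every control sample. The next 2 genes encode osteopontin (SPP1), a secreted phosphoprotein of bone and of macrophages, and tartrate-resistant acid phosphatase (ACP5, named uteroferrin in the files), an enzyme of osteoclasts and activated macrophages. SPP1 measured 16.56, 13.79, 11.80 and 15.78 log2 units at the anastomosis and 9.23, 10.69, 9.20 and 8.33 in the controls, a difference of 5.12 ± 1.06 (34.8-fold, adjusted p = 0.0112 in limma). Its groups did not overlap, but its adjusted p was 0.0673 without replicate 1 and 0.0737 without replicate 4. It stayed called without replicate 2 and without replicate 3. A second SPP1 probe differed by 3.34. ACP5 measured 16.77, 15.43, 14.12 and 16.45 log2 units at the anastomosis and 10.79, 11.95, 11.60 and 11.44 in the controls, a difference of 4.25 ± 0.68 (19.0-fold, adjusted p = 0.00336 in limma). Replicate 3 was the lowest anastomosis sample for both SPP1 and ACP5 and the highest for THBS4.

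Tenascin N and the chemokine CXCL14 followed. Tenascin N (TNN) is a matricellular protein of bone and connective tissue, and its level was 11.22, 13.22, 13.10 and 11.22 log2 units at the anastomosis, against 7.98, 8.45, 8.17 and 7.25 in the controls. That difference was 4.23 ± 0.74 (18.7-fold, adjusted p = 0.00532 in limma), with replicates 2 and 3 the higher pair of anastomosis samples. CXCL14 measured 14.27, 13.76, 13.79 and 15.69 log2 units at the anastomosis and 9.36, 11.03, 9.84 and 10.84 in the controls. It rose by 4.11 ± 0.77 on the log2 scale (17.2-fold, adjusted p = 0.00722 in limma), the groups did not overlap, and without replicate 4 its adjusted p was 0.0544. The smallest adjusted p among the named genes, 4.82e-05 in limma, belonged to TMEM158, a membrane protein known as a target of RAS signalling in human cells, and to thymosin beta 10 (TMSB10), a small actin-binding peptide. TMEM158 measured 14.42, 13.65, 12.04 and 12.98 log2 units at the anastomosis and 9.06, 10.55, 9.13 and 8.56 in the controls, a difference of 3.95 ± 0.31 (SE, n = 4 pairs).

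**Figure D2:**
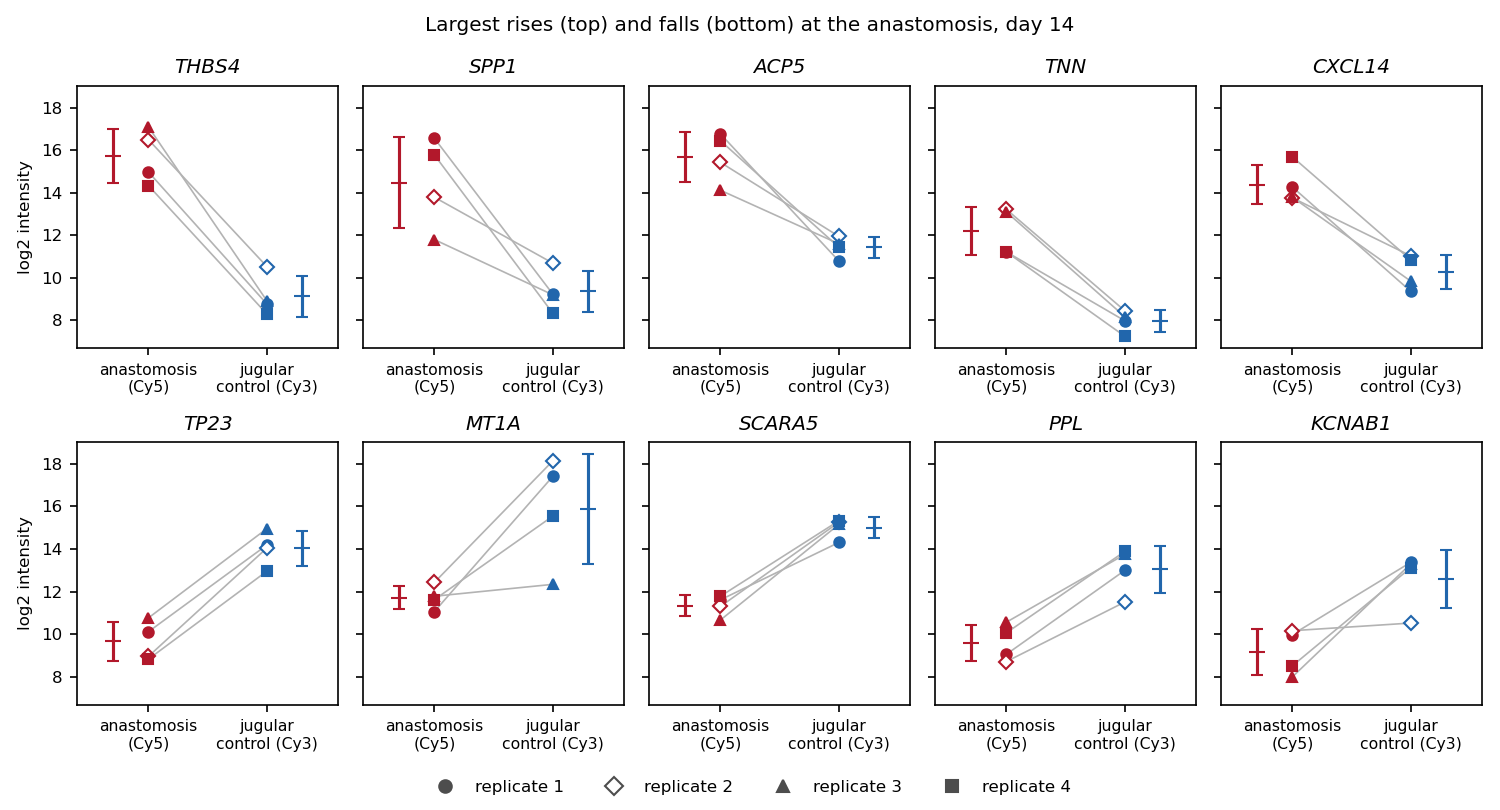
Normalised log2 intensity of the 5 genes with the largest rise (top) and the 5 with the largest fall (bottom), with anastomosis samples in red on the left, jugular control samples in blue on the right, grey lines joining the samples of 1 array, and bars for the mean and SD (n = 4). The groups did not overlap for 9 of the 10 genes, and MT1A did because control replicate 3 was at 12.34 log2 units. The genes were picked on these same values, as the largest differences among calls that moved 1 way in 4 of 4 pairs, so little overlap follows from the choice. Over all features tested 6.09% did not overlap.

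The falls were led by TP23, which the files describe as a basic proline-rich protein. Its level was 10.11, 8.95, 10.76 and 8.82 log2 units at the anastomosis and 14.19, 14.05, 14.96 and 12.96 in the controls. It fell by 4.38 ± 0.44 on the log2 scale (20.9-fold, adjusted p = 6.20e-04 in limma), and the groups did not overlap. Metallothionein 1A (MT1A), a metal-binding protein induced by metals and glucocorticoids, measured 11.06, 12.43, 11.78 and 11.62 log2 units at the anastomosis and 17.42, 18.15, 12.34 and 15.55 in the controls. The difference was -4.14 ± 0.91 (17.7-fold, adjusted p = 0.0148 in limma). Control replicate 3 lay below the highest anastomosis sample, and the adjusted p was 0.076 without replicate 1 and 0.0592 without replicate 4. Without replicate 2 the difference was -3.62 (adjusted p = 0.0422 in limma).

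The ferritin receptor SCARA5, a marker of resting adventitial fibroblasts, measured 11.61, 11.30, 10.66 and 11.78 log2 units at the anastomosis and 14.31, 15.26, 15.16 and 15.33 in the controls. Its fall of 3.67 ± 0.51 (12.8-fold, adjusted p = 0.00182 in limma) separated the groups completely. Periplakin (PPL), a cytoskeletal linker of cell junctions, measured 9.05, 8.71, 10.56 and 10.06 log2 units at the anastomosis and 13, 11.51, 13.75 and 13.89 in the controls, and fell by 3.44 ± 0.46 (10.9-fold, adjusted p = 0.00156 in limma). The potassium channel subunit KCNAB1 measured 9.98, 10.16, 7.99 and 8.51 log2 units at the anastomosis and 13.38, 10.52, 13.31 and 13.13 in the controls. Control replicate 2 was the low control, and the difference of -3.43 ± 0.86 (adjusted p = 0.0259 in limma) was -4.45 without replicate 2. Its adjusted p was 0.0699, 0.103 and 0.141 without replicates 1, 3 and 4. Further large falls were CPE, a peptide-processing carboxypeptidase (-2.87), CTNNA2, an alpha catenin (-2.74), and TSPAN2, a tetraspanin (-3.03). Control replicate 2 was the lowest control for each, and without it their differences were -3.77, -3.52 and -3.95. Without replicate 4 their adjusted p was 0.116, 0.0953 and 0.0839 in limma, and CPE and TSPAN2 were also lost without replicates 1 and 3 (adjusted p from 0.0501 to 0.0971).

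Matrix and bone genes moved as a mixed group in which the members with the largest differences were up. Of 13 matricellular genes measured, 6 rose and 2 fell, with a median of 0.87 on the log2 scale beside 0.01 over all features. The 6 that rose were THBS4, SPP1, TNN, periostin (POSTN, a matrix protein of activated fibroblasts), tenascin C (TNC) and CCN4, and the 2 that fell were tenascin X (TNXB) and SPARCL1. POSTN measured 15.87, 15.37, 15.21 and 15.77 log2 units at the anastomosis, against 12.57, 13.42, 12.48 and 11.95 in the controls, a rise of 2.95 ± 0.49 (7.70-fold, adjusted p = 0.00422 in limma). TNXB, a tenascin of resting connective tissue, measured 12.33, 10.89, 12.13 and 11.75 log2 units at the anastomosis and 14.20, 12.44, 13.38 and 14.31 in the controls, and fell by 1.81 ± 0.35. Without replicates 1, 2, 3 and 4 in turn, 5, 6, 5 and 4 of the 8 calls remained, and those lost had adjusted p from 0.0505 to 0.174. TNC was lost each time, SPARCL1 without replicates 1, 3 and 4, CCN4 without replicates 2, 3 and 4, SPP1 without replicates 1 and 4, and THBS4, TNN, POSTN and TNXB were kept each time.

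Among 14 bone and cartilage genes 4 rose and none fell, with a median of 0.62. COL11A1, a collagen chain of cartilage, was not well above background on any control array. It measured 8.32, 10.95, 9.97 and 9.42 log2 units at the anastomosis, and 6.79, 6.48, 5.90 and 6.14 in the controls. The rise was at least 9.93-fold when the dimmest probes well above background bound the control level, a bound open to dye bias because no array had its dyes swapped, and its adjusted p was 0.00188 in limma. SOX9, the transcription factor of cartilage, measured 7.72, 7.68, 7.53 and 7.0 log2 units at the anastomosis, against 6.70, 6.46, 6.02 and 5.97 in the controls, a rise of 1.20 ± 0.15 (adjusted p = 0.00141). ENPP1, an enzyme that makes pyrophosphate, rose by 1.04 ± 0.30. COL11A1 and SOX9 were called without each replicate in turn, while SPP1 and ENPP1 were lost without replicate 1 and without replicate 4 (adjusted p from 0.0673 to 0.22). Bone sialoprotein (IBSP), singled out after its values were seen, measured 12.83, 7.95, 7.15 and 12.63 log2 units at the anastomosis and 7.12, 6.31, 5.98 and 6.79 in the controls, and its adjusted p was 0.0509 in limma. Without replicate 2 its difference was 4.24 (adjusted p = 0.0472), against 3.59 with 4 pairs.

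The osteoclast and cell fusion list, which holds genes that build multinucleated bone-resorbing cells, had 5 of 11 members higher and none lower, with a median of 1.05. Beside ACP5 these were the fusion protein DCSTAMP (3.38 ± 0.80), the proton pump subunit ATP6V0D2 (1.46 ± 0.30), the transcription factor NFATC1 (1.69 ± 0.49) and the collagen-cleaving protease cathepsin K (CTSK, 1.04 ± 0.18). ATP6V0D2 was well above background on only 1 of the 4 control arrays. The size of its rise depended on the processing and was 3.98 with the scanner's processed signals. DCSTAMP measured 11.99, 9.76, 8.12 and 11.79 log2 units at the anastomosis and 7.11, 6.97, 6.69 and 7.36 in the controls. The list's summed level was 18.08, 16.58, 15.76 and 17.61 at the anastomosis and 13.71, 15.02, 14.75 and 14.96 in the controls, with no overlap. Sums of unlike lists, such as the ribosomal proteins, did not overlap either. Of the 5 calls, 4 remained without each of replicates 1, 2 and 3, and 2 remained without replicate 4 (adjusted p of those lost from 0.0562 to 0.147). Other probes of NFATC1 differed by between -0.03 and 1.41.

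Among 18 fibrillar and basement membrane collagens, 2 rose and 2 fell. The higher ones were COL8A1, a short-chain collagen of injured vessels (2.84 ± 0.51), and COL5A3 (0.98 ± 0.27), and the lower ones were COL21A1 (-2.65 ± 0.47) and COL4A5 (-1.78 ± 0.45). COL8A1 measured 14.12, 14.17, 13.82 and 14.86 log2 units at the anastomosis and 11.29, 9.58, 12.70 and 12.06 in the controls. COL1A1, COL1A2 and COL3A1, which form the bulk of the vein's fibrillar collagen, differed by -0.08 ± 0.36, 0.38 ± 0.35 and -0.32 ± 0.39 and did not pass (adjusted p from 0.565 to 0.929). COL1A1 and COL3A1 turned positive when arrays were only median-centred. COL8A1 and COL21A1 were called without each replicate in turn, and the other 2 were lost without replicates 1, 3 and 4 (adjusted p from 0.0633 to 0.148).

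Enzymes that modify matrix also differed. The lysyl hydroxylase PLOD2, which prepares collagen for crosslinking, measured 12.65, 12.71, 11.81 and 12.34 log2 units at the anastomosis and 10.91, 10.48, 10.95 and 11.03 in the controls, a rise of 1.53 ± 0.26 (adjusted p = 0.00486 in limma). It was the only higher member of 9 collagen folding genes, and PCOLCE2, an enhancer of procollagen processing, was the only lower one (-1.82 ± 0.42, adjusted p = 0.0647 without replicate 3 and 0.0748 without replicate 4). Of 18 matrix proteases and inhibitors 3 rose and none fell, with a median of 0.91. The membrane protease MMP14 rose by 1.92 ± 0.34, protease nexin SERPINE2 by 2.67 ± 0.38 and urokinase PLAU by 1.81 ± 0.44. SERPINE2 measured 13.51, 12.22, 11.51 and 11.73 log2 units at the anastomosis and 9.44, 10.24, 9.61 and 9.0 in the controls. MMP14 and SERPINE2 were called without each replicate in turn, while the adjusted p of PLAU was 0.0546, 0.0545 and 0.0703 without replicates 1, 3 and 4. Of 16 proteoglycan and hyaluronan genes 3 rose (asporin ASPN, syndecan SDC2 and CHSY1) and glypican GPC3 fell (-2.12 ± 0.43). Their calls numbered 1, 2, 3 and 0 of 4 without replicates 1, 2, 3 and 4, with adjusted p from 0.0539 to 0.138 for those lost. SDC2 and CHSY1 rose by 1.25 and 1.20, but other probes of SDC2 were at 0.21 and 0.23 and a second probe of CHSY1 at 0.22. Among 9 elastic fibre genes 1 was called, LTBP4 (-1.57 ± 0.32), whose other probes ran from -0.83 to 0.11 and whose adjusted p was 0.0647 without replicate 1 and 0.077 without replicate 4.

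Of 25 monocyte and macrophage genes 9 were higher and none lower, with a median of 1.10 on the log2 scale, and 19 moved up in 4 of 4 pairs. The scavenger receptor MSR1, which takes up modified lipoproteins, measured 13.03, 12.23, 10.82 and 12.78 log2 units at the anastomosis and 10.82, 8.39, 9.06 and 9.48 in the controls, a rise of 2.78 ± 0.39 (6.86-fold, adjusted p = 0.00186 in limma). Its groups overlapped only where anastomosis replicate 3 and control replicate 1 met. CD68, a protein of macrophage lysosomes, measured 14.45, 14.12, 14.72 and 15.48 log2 units at the anastomosis and 12.78, 11.66, 13.57 and 13.31 in the controls, a rise of 1.86 ± 0.32. The complement receptor VSIG4 rose by 1.56 ± 0.26, and the NADPH oxidase heavy chain listed as GP91-PHOX, which makes superoxide, rose by 2.07 ± 0.40. MSR1, CD68 and VSIG4 were called without each replicate in turn. Across the list 5, 7, 7 and 4 of the 9 calls remained without replicates 1, 2, 3 and 4, and the others had adjusted p from 0.0575 to 0.22. The list's summed level ran from 17.15 to 18.08 at the anastomosis and from 15.83 to 16.52 in the controls. CD14, a monocyte receptor, differed by 0.02 ± 0.40 (adjusted p = 0.989 in limma).

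Lysosomal genes were the list with the most calls. Of 28 lysosome and cathepsin genes 14 were higher and none lower, with a median of 0.71, and their summed level ran from 18.93 to 19.45 log2 units at the anastomosis and from 17.82 to 18.57 in the controls. The protease cathepsin B (CTSB) measured 17.10, 17.05, 16.44 and 17.11 log2 units at the anastomosis and 15.49, 14.61, 15.57 and 15.29 in the controls, a rise of 1.68 ± 0.21 (3.21-fold, adjusted p = 0.00124 in limma). Cathepsin D (CTSD) measured 13.62, 13.87, 13.07 and 14.39 log2 units at the anastomosis and 11.41, 11.94, 12.13 and 12.49 in the controls, a rise of 1.75 ± 0.30. CTSB, CTSD and CD68 were called without each replicate in turn, whereas cathepsin S (CTSS, 1.49 ± 0.35) had an adjusted p of 0.138 without replicate 4 and a second probe at 0.04. In total 6, 11, 10 and 4 of the 14 calls remained without replicates 1, 2, 3 and 4, with adjusted p from 0.0514 to 0.208 for those lost. Saposin precursor PSAP and cathepsin L (CTSL) did not pass (adjusted p = 0.997 and 0.907). Under median centring of the arrays all 14 stayed called and CTSL and LAMP2 changed sign. That centring kept 1537 of all 1580 higher calls and called 30.8% of all features higher, so keeping the 14 is not particular to this list.

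Foam cell genes, which handle lipid in loaded macrophages, had 6 of 20 members higher and 1 lower, with a median of 0.69. Beside MSR1 the rises included the glycoprotein GPNMB (2.11 ± 0.42) and the fatty acid binding protein FABP5 (2.17 ± 0.56), and the cholesterol hydroxylase CYP27A1 fell (-1.82 ± 0.52). FABP5 measured 14.75, 14.37, 15.87 and 15.21 log2 units at the anastomosis and 10.51, 15.02, 13.16 and 12.82 in the controls, the fat-rich control being the highest control. Its rise was 3.11 without replicate 2, and its adjusted p was 0.159, 0.0948 and 0.13 without replicates 1, 3 and 4. This list shares CD36, FABP4 and LPL with the adipocyte list, and its pair medians were 0.96, -0.36, 1.16 and 1.45 for replicates 1 to 4. Of the 7 calls 2, 7, 2 and 1 remained without replicates 1, 2, 3 and 4, and those lost had adjusted p from 0.0618 to 0.255.

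Among 15 genes of MHC class II and antigen presentation 7 were higher and none lower, with a median of 1.01, and the summed level ran from 17.39 to 18.25 log2 units at the anastomosis and from 16.30 to 17.11 in the controls. The costimulatory receptor CD86 measured 10.92, 11.32, 11.49 and 12.25 log2 units at the anastomosis and 9.38, 10.07, 10.11 and 9.52 in the controls, a rise of 1.73 ± 0.34. The invariant chain CD74 rose by 1.37 ± 0.33, and the class II chains SLA-DRB1 and SLA-DQA1 by 1.28 ± 0.32 and 1.26 ± 0.31 (adjusted p from 0.00942 to 0.0245 for the 4 genes in limma). Without replicate 4 none of the 7 passed (adjusted p from 0.0673 to 0.191), while 2, 5 and 7 passed without replicates 1, 2 and 3 (adjusted p of those lost from 0.0501 to 0.0857). Other probes of SLA-DQA1 ran from 0.28 to 1.03.

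Of 25 complement genes 6 rose and 1 fell. The central component C3 measured 12.62, 12.14, 10.53 and 12.63 log2 units at the anastomosis and 9.54, 9.26, 8.78 and 9.14 in the controls, a rise of 2.80 ± 0.62 (6.96-fold, adjusted p = 0.0149 in limma) with no overlap. C2 and C1S, proteases of the classical pathway, rose by 1.42 ± 0.33 and 0.96 ± 0.28. CFD, a complement protease made by fat cells, fell by 1.35 ± 0.38 with 4 pairs and was at -0.89 without replicate 2 (adjusted p = 0.169), and its second probe was at -0.19. VSIG4 alone of the 7 calls remained without replicates 1 and 4, 5 remained without replicate 2 and 2 without replicate 3, with adjusted p from 0.0501 to 0.21 for those lost.

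Other leukocyte lists gave few calls. The neutrophil chemokine receptor CXCR2 fell in every pair: it measured 9.25, 10.97, 8.64 and 11.27 log2 units at the anastomosis and 10.71, 13.75, 11.19 and 13.11 in the controls, a difference of -2.15 ± 0.30 (adjusted p = 0.00178 in limma). Samples of 1 array were high or low together, so the groups overlapped although all 4 pairs fell. The antibacterial protein PGLYRP1 fell by 0.89 ± 0.13. CXCR2 and PGLYRP1 were called without each replicate in turn. Of 16 T and NK cell genes 2 rose, CD4 (0.42 ± 0.12) and NKG7 (0.86 ± 0.25), both lost without replicates 1 and 4 (adjusted p from 0.124 to 0.222). CD4 was well above background on 3 of the 4 control arrays, and its rise was 1.40 with the scanner's processed signals. None of 3 B cell genes was called in limma (median -0.57, 2 at an unadjusted p below 0.05, beside 8284 of all 33318 features). In the mast cell list 2 of 5 rose, the histamine-making enzyme HDC (1.33 ± 0.26, called without each replicate in turn) and the stem cell factor receptor KIT (1.18 ± 0.28, adjusted p = 0.0791 without replicate 1 and 0.139 without replicate 4). KIT was at 1.16 without replicate 2 (adjusted p = 0.0471 in limma).

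Among 34 chemokines and cytokines 3 rose and 2 fell, with a median of 0.06. Over all features 4.74% were called higher and 4.04% lower, with a median of 0.01. With CXCL14, the lymphoid chemokine CCL21 (3.13 ± 0.70) and the progenitor-attracting CXCL12 (1.73 ± 0.42) rose, and the neutrophil attractant CXCL2 (-2.33 ± 0.66) and interleukin 1 alpha (IL1A, -2.20 ± 0.63) fell. CCL21 measured 8.79, 9.42, 10.56 and 10.99 log2 units at the anastomosis and 6.93, 6.88, 6.52 and 6.89 in the controls. A second probe of CXCL12 differed by -0.21. None of the 5 passed without replicate 4, and 2, 3 and 3 passed without replicates 1, 2 and 3, with adjusted p from 0.0544 to 0.193 for those lost. Of 22 interferon response genes only the transcription factor IRF1 was called, beside 4.04% of all features called lower. It fell by 2.25 ± 0.55 (adjusted p = 0.0814 without replicate 1 and 0.095 without replicate 4), and was at -2.03 without replicate 2 (adjusted p = 0.0463 in limma).

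Fibroblast genes differed by state in part. Of 8 genes of activated fibroblasts 5 rose and none fell, with a median of 1.39, and of 19 genes of resting adventitial fibroblasts 2 rose and 6 fell, with a median of -0.62 that was 0.22 when arrays were only median-centred. The activated genes that rose were POSTN, COL8A1, TNC, fibronectin (FN1) and the surface protein THY1. Smooth muscle actin (ACTA2), also on the activated list, was called lower without replicate 2. That list's summed level overlapped between the groups, from 18.07 to 19.03 log2 units at the anastomosis and from 16.28 to 19.33 in the controls. FN1 measured 17.41, 17.35, 16.63 and 17.58 log2 units at the anastomosis and 15.89, 13.56, 17.21 and 15.63 in the controls. Its rise of 1.67 ± 0.45 was 0.96 without replicate 2 (adjusted p = 0.131), and its adjusted p was 0.1 without replicate 1 and 0.15 without replicate 4. The resting set that fell comprised SCARA5, the myocilin gene MYOC, the actin-severing protein gelsolin (GSN), PCOLCE2, TNXB and CFD, while C3 and the Wnt modulator SFRP4 rose. MYOC measured 6.33, 9.85, 9.0 and 7.44 log2 units at the anastomosis and 8.63, 16.60, 10.87 and 9.24 in the controls, so the fat-rich control held by far the highest level. Its difference of -3.18 ± 0.86 was -1.99 without replicate 2 (adjusted p = 0.141). Of the 5 activated calls 2, 3, 3 and 2 remained, and of the 8 resting calls 4, 6, 5 and 2, without replicates 1, 2, 3 and 4 (adjusted p of those lost from 0.0501 to 0.177).

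Contractile smooth muscle genes were lower in part, and their number depended on replicate 2. With 4 pairs 2 of 19 were lower, the sarcomere linker PDLIM3 (-2.65 ± 0.62) and the calcium-binding CASQ2 (-1.53 ± 0.43), with a median of -1.32. Without replicate 2, 14 of 19 were lower with a median of -1.96, beside 6.16% lower calls over all features there. The pair medians were -1.32, 1.00, -2.49 and -2.25 for replicates 1 to 4. PDLIM3 measured 8.53, 8.15, 8.94 and 9.02 log2 units at the anastomosis and 12.14, 8.20, 12.33 and 12.56 in the controls. Smooth muscle myosin heavy chain (MYH11), singled out after its values were seen, measured 14.25, 14.47, 13.16 and 13.27 log2 units at the anastomosis and 16.81, 13.67, 17.41 and 17.12 in the controls. Its difference was -2.46 ± 0.74 with 4 pairs (adjusted p = 0.0536 in limma) and -3.55 without replicate 2 (adjusted p = 0.00816). Likewise calponin CNN1 was at -3.14, the transgelin gene TAGLN at -1.71 and smooth muscle actin ACTA2 at -1.69 without replicate 2, against -2.14, -0.90 and -0.63 with 4 pairs. TAGLN and ACTA2, with SMTN, FLNA, TPM1 and MYL6, turned positive with 4 pairs when arrays were only median-centred, where 3 of the 19 were lower and the median was -0.52. Neither of the 2 calls made with 4 pairs passed without replicates 1, 3 or 4 (adjusted p from 0.0637 to 0.157). Control replicate 2 was below the other 3 controls for 18 of the 19 genes, and it was above them for 24 of the 25 adipocyte genes.

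**Figure D3:**
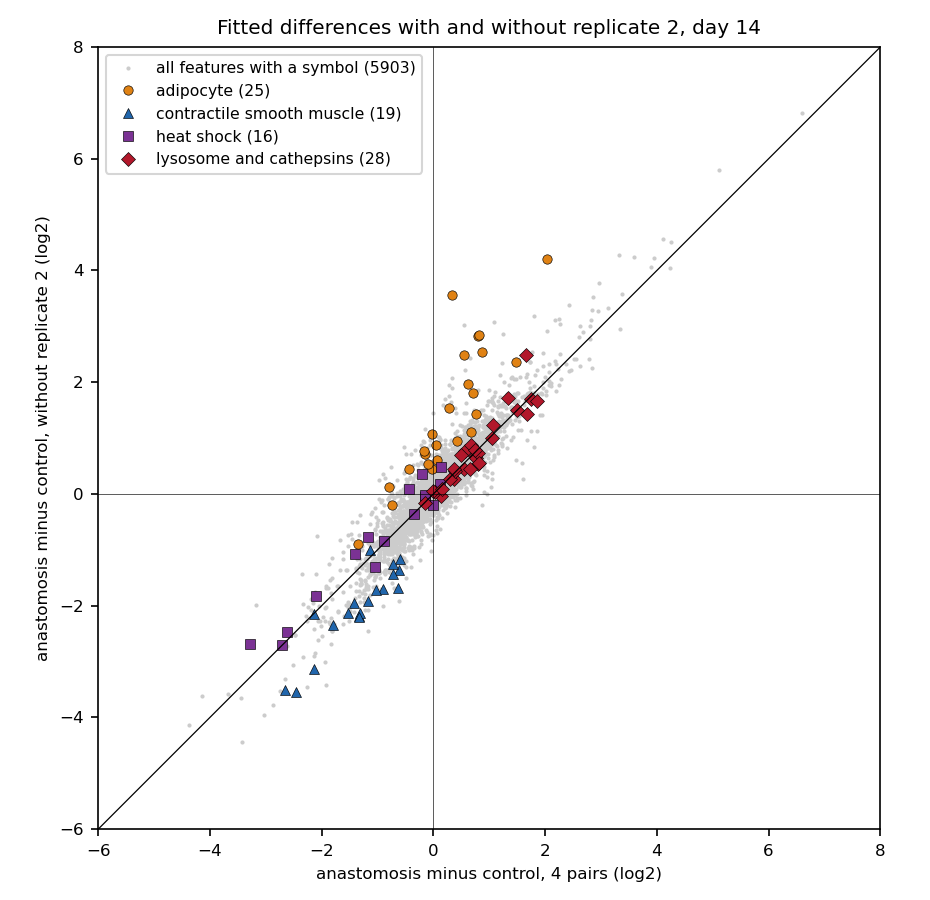
Fitted log2 difference of each feature with a symbol, anastomosis minus control, with all 4 pairs (horizontal axis) and without replicate 2 (vertical axis), with the line of equality. Most adipocyte genes lie above the line, most contractile genes lie below it with a median of -1.96 without replicate 2 against -1.32 with it, and lysosome genes had medians of 0.66 without replicate 2 and 0.71 with it.

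The adipocyte list showed no shared direction over the pairs. Its pair medians were -0.06, -2.75, 2.90 and 0.22 for replicates 1 to 4, and 1 of 25 genes was called, CFD, which fell, beside 4.04% of all features called lower. Without replicate 2 no member was lower and 3 were higher, FABP4 (4.21), the fat cell regulators PPARG (2.54) and CEBPA (2.36). CEBPA measured 12.79, 12.51, 14.66 and 12.43 log2 units at the anastomosis and 10.79, 13.71, 11.40 and 10.60 in the controls, with replicate 3 the highest anastomosis sample. Anastomosis replicate 3 was above the other 3 for 23 of the 25 genes. Of 22 skeletal muscle genes 4 fell, among them MYH7 (-0.83 ± 0.21). MYH7 was at -0.51 without replicate 1 (adjusted p = 0.0949), where none of the 4 passed (adjusted p from 0.0737 to 0.16), nor did they without replicate 4, and MYH7 alone passed without replicate 3. Without replicate 2 all 4 were kept and 6 of the 22 genes were lower, beside 6.16% of all features there. Skeletal muscle genes summed to between 11.95 and 12.20 log2 units at the anastomosis and between 12.06 and 13.57 in the controls.

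Vessel-lining and mural genes rose in part. Of 16 endothelial genes 5 were higher and none lower, with a median of 0.32. The transcription factor SOX18 measured 8.46, 8.90, 8.95 and 9.19 log2 units at the anastomosis and 7.26, 7.22, 8.16 and 7.81 in the controls, a rise of 1.27 ± 0.20 (adjusted p = 0.00277 in limma). The VEGF receptor KDR rose by 1.68 ± 0.33 (its other probes by 0.48 and 0.59), the adhesion molecule ICAM2 by 1.31 ± 0.26, angiopoietin 2 (ANGPT2) by 0.83 ± 0.24 and endoglin (ENG) by 0.61 ± 0.15. PECAM1 and VWF, which mark endothelium in general, differed by 0.30 ± 0.26 and 0.24 ± 0.29 and did not pass (adjusted p = 0.541 and 0.673). SOX18 was the gene called without each replicate in turn; 3, 3, 4 and 1 of the 5 calls remained without replicates 1, 2, 3 and 4, with adjusted p from 0.0511 to 0.186 for those lost. Of 17 flow-responsive genes ANGPT2 rose, and TXNIP (-1.21 ± 0.35) and BMP4 (-0.96 ± 0.23) fell, but their median of -0.58 became 0.31 when arrays were only median-centred, where TXNIP and BMP4 were not called. Of these 3 calls 1, 1, 2 and 0 remained without replicates 1, 2, 3 and 4 (adjusted p of those lost from 0.0773 to 0.192), and BMP4 was the one that remained without replicate 2.

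Of 9 pericyte genes 4 rose and none fell, with a median of 0.35. The list's summed level went the other way in each pair but that of replicate 2. It was 16.01, 15.13, 14.83 and 15.10 log2 units at the anastomosis and 16.42, 14.45, 17.07 and 16.58 in the controls. RGS5, a signalling regulator of pericytes, measured 12.93, 13.48, 12.50 and 13.05 log2 units at the anastomosis and 7.93, 12.01, 11.29 and 10.26 in the controls, a rise of 2.62 ± 0.51 (adjusted p = 0.0084 in limma). Without replicate 1, whose control was the lowest, its rise was 1.83, and without replicate 4 its adjusted p was 0.0539. The peptidase ANPEP rose by 1.85 ± 0.37, FHL5 by 1.46 ± 0.39 and NDUFA4L2 by 1.22 ± 0.33, and 1, 3, 2 and 1 of the 4 calls remained without replicates 1, 2, 3 and 4 (adjusted p from 0.051 to 0.164). In the lymphatic list 2 of 6 rose, CCL21 and the growth factor VEGFC. VEGFC measured 8.68, 8.35, 8.17 and 8.77 log2 units at the anastomosis and 7.37, 8.01, 7.10 and 6.86 in the controls, and rose by 1.16 ± 0.20 in limma (adjusted p = 0.00557), also without each replicate in turn.

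Coagulation and fibrinolysis genes gave 4 rises and 1 fall among 24. Tissue factor pathway inhibitor (TFPI), which blocks the start of clotting, measured 9.35, 9.62, 8.57 and 9.19 log2 units at the anastomosis and 7.76, 8.59, 7.05 and 7.45 in the controls, a rise of 1.47 ± 0.18 (adjusted p = 0.00124 in limma). SERPINE2, PLAU and the plasminogen-binding annexin ANXA2 also rose, and prothrombin (F2) fell by 0.95 ± 0.27. ANXA2 rose by 0.54 ± 0.15 with 4 pairs and by 0.81 without replicate 2. TFPI and SERPINE2 were called without each replicate in turn, and ANXA2, PLAU and F2 were lost without replicates 1, 3 and 4 (adjusted p from 0.0545 to 0.242).

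**Figure D4:**
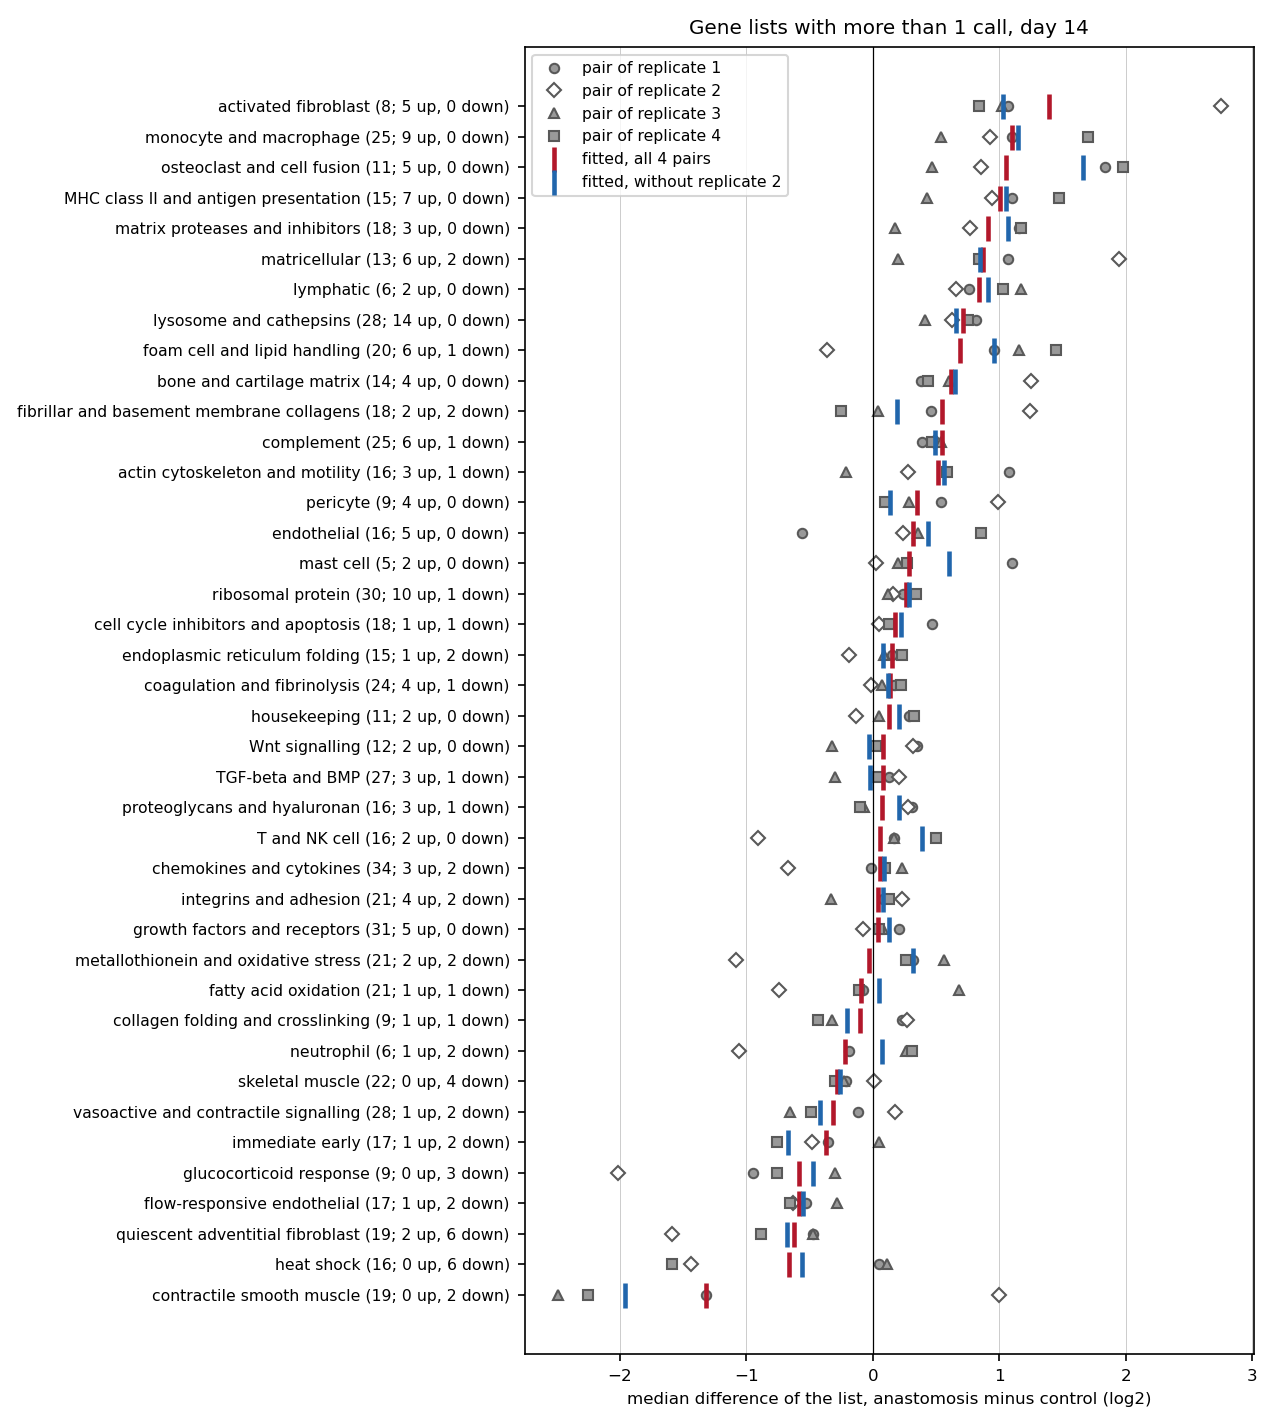
Median log2 difference, anastomosis minus control, of each gene list with more than 1 call, per pair (grey symbols, replicate 2 open) and from the fit with all 4 pairs (red) and without replicate 2 (blue), with the number of genes and calls in brackets. Macrophage and antigen presentation medians were above 0 in each pair, and the contractile smooth muscle median was 1.00 in the pair of replicate 2 and below 0 in the other 3.

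Several heat shock and metal response genes fell at the anastomosis. Of 16 heat shock genes 6 fell and none rose, with a median of -0.66. HSP70.2, whose probe is printed above, measured 12.87, 14.46, 10.36 and 13.51 log2 units at the anastomosis and 15.57, 17.23, 11.82 and 17.44 in the controls, a fall of 2.71 ± 0.53 (6.57-fold, adjusted p = 0.00886 in limma). All 4 pairs fell, and the 2 samples of replicate 3 were the lowest of their groups. HSPA6, named HSP70 in the files, measured 9.93, 11.02, 7.45 and 8.76 log2 units at the anastomosis and 11.66, 16.10, 8.38 and 14.19 in the controls, and the cochaperone DNAJB1 12.44, 13.77, 13.11 and 12.90 against 15.85, 16.88, 12.88 and 17.14. The controls therefore ranged over more than 4 log2 units for these genes, and replicates 2 and 4 were the highest controls. The cochaperone AHSA1 fell by 0.88 ± 0.16. Of the 6 calls 4, 2, 6 and 1 remained without replicates 1, 2, 3 and 4, and the others had adjusted p from 0.0502 to 0.191. Pair medians of the list were 0.05, -1.44, 0.11 and -1.59. When arrays were only median-centred the list had 2 higher and 3 lower calls with a median of 0.0, and HSPA1L, DNAJA1 and AHSA1 were not called.

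In the metallothionein and oxidative stress list MT1A and the zinc exporter SLC30A1 (-1.27 ± 0.27) fell, and both ferritin chains rose. Ferritin light chain (FTL), which stores iron, measured 17.14, 17.21, 16.86 and 17.06 log2 units at the anastomosis and 15.40, 15.84, 15.13 and 15.18 in the controls, a rise of 1.68 ± 0.25 (adjusted p = 0.00235 in limma). Ferritin heavy chain (FTH1) rose by 1.03 ± 0.14 (adjusted p = 0.00168), both chains were called without each replicate in turn, and 9 other probes of FTH1 ran from 0.13 to 1.12. Other probes of FTL were at 0.24 and 1.23. MT1A and SLC30A1 were lost without replicate 4 (adjusted p = 0.0592 and 0.0683). Of 9 glucocorticoid-responsive genes 3 fell: MT1A, the kinase PDK4 (-2.62 ± 0.62) and FKBP5 (-0.38 ± 0.11), the last of which was at 0.14 under median centring. The list's median of -0.58 was 0.12 under the same centring. The summed level of that list ran from 16.61 to 17.13 log2 units at the anastomosis and from 17.45 to 19.39 in the controls. None of the 3 passed without replicates 1 or 4 (adjusted p from 0.0585 to 0.13), and FKBP5 did not pass without replicate 2 (adjusted p = 0.113) or 3 (0.0603). Of 17 immediate early genes the transcription factor KLF6 rose by 1.96 ± 0.38, and RND3 (-1.89 ± 0.42) and IER2 (-1.36 ± 0.37) fell. No call of this list remained without replicate 1, and KLF6 alone remained without replicate 4 (adjusted p of those lost from 0.0536 to 0.195). All 3 remained without replicate 2, where 1 member was higher and 3 were lower. Other probes of KLF6 were at 0.89 and 0.95.

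Housekeeping and abundant genes were compared because they show how far scaling enters. Of 11 housekeeping genes ACTB (0.96 ± 0.23) and HPRT1 (1.05 ± 0.26) were called higher and none lower, with a median of 0.13. Neither passed without replicates 1 or 4 (adjusted p from 0.0927 to 0.134), ACTB did not pass without replicate 2 (0.0698), and 6 other probes of ACTB ran from -0.39 to 1.27. YWHAZ, TOP2B and TFRC changed sign under median centring of the arrays, where the list's median was 0.90. Of 30 ribosomal protein genes 10 rose and RPS15 fell (-0.55 ± 0.13), with a median of 0.26 that was 1.33 under median centring, where RPS15 was at 0.42 and no member was called lower. The largest rises, RPSA (0.95 ± 0.15), RPS23 (0.93 ± 0.11), RPS20 (0.83 ± 0.12) and RPS18 (0.74 ± 0.11), were called without each replicate in turn, but 2 other probes of RPS23 were at -0.06 and -0.05. Of the 11 ribosomal calls 6, 10, 8 and 5 remained without replicates 1, 2, 3 and 4 (adjusted p from 0.054 to 0.238).

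Actin-binding genes gave 3 rises and 1 fall among 16, with a median of 0.52. TMSB10 measured 17.78, 17.22, 17.24 and 17.63 log2 units at the anastomosis and 15.59, 15.55, 15.96 and 15.70 in the controls, a rise of 1.77 ± 0.13. Thymosin beta 4 (TMSB4X) measured 18.03, 17.74, 17.27 and 17.79 log2 units at the anastomosis and 14.69, 15.73, 17.05 and 16.10 in the controls, a rise of 1.81 ± 0.34. These genes and PPL were called without each replicate in turn, and ACTB was lost without replicates 1, 2 and 4 (adjusted p from 0.0698 to 0.116).

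Growth factor genes showed 5 rises and no fall among 31, with a median of 0.04. Beside VEGFC these were insulin-like growth factor 1 (IGF1, 1.25 ± 0.31), its binding protein IGFBP4 (1.19 ± 0.24), the keratinocyte growth factor FGF7 (1.06 ± 0.30) and the receptor FGFR2 (0.56 ± 0.16). IGF1 measured 10.14, 10.85, 11.41 and 10.04 log2 units at the anastomosis and 9.54, 9.84, 8.93 and 9.12 in the controls. Other probes of IGF1 differed by 0.19 and 0.67. VEGFC alone remained without replicate 4, while 3, 5 and 2 calls remained without replicates 1, 2 and 3 (adjusted p from 0.0621 to 0.14). The endothelial receptor NOTCH4 measured 9.83, 9.98, 9.53 and 9.92 log2 units at the anastomosis and 7.81, 9.34, 8.72 and 8.55 in the controls, and its rise of 1.21 ± 0.22 was the 1 call among 6 Notch genes, kept without each replicate in turn. Of 27 TGF-beta and BMP genes SMAD1 (0.67 ± 0.18), SMAD2 (0.47 ± 0.12) and ENG rose and BMP4 fell, and of 21 integrin and adhesion genes 4 rose, among them FN1 and ITGA6 (0.94 ± 0.22), and 2 fell, ITGA4 (-1.06 ± 0.25) and LAMA2 (-1.32 ± 0.36). Without replicate 4 none of these 10 calls passed (adjusted p from 0.0566 to 0.164), and without replicate 1 none of the TGF-beta calls did. Without replicate 2, SMAD2 and BMP4 alone remained of the 4 TGF-beta calls, in a list that then had 2 higher and 5 lower members, and 3 of the 6 integrin and adhesion calls remained. Those lost included SMAD1 (0.56, adjusted p = 0.0824), ENG (0.56, adjusted p = 0.0579) and LAMA2 (-1.17, adjusted p = 0.0812). With 4 pairs other probes of ITGA6 were at 0.09 and 0.49, and a second probe of SMAD2 was at 0.15. Inducible nitric oxide synthase (NOS2) rose by 1.20 ± 0.26, and its adjusted p was 0.0734 without replicate 1 and 0.0853 without replicate 4. Without replicate 2 it was at 1.43 (adjusted p = 0.00796 in limma). Its list of 28 vasoactive and contractile signalling genes had 1 higher and 2 lower calls with 4 pairs. Without replicate 2 these were 2 and 6, beside 5.56% and 6.16% of all features there.

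Some lists had no call in limma. At an unadjusted p below 0.05 there were 3 of 19 oxidative phosphorylation genes (median -0.08), 1 of 23 proteasome genes (median 0.13), 4 of 14 hypoxia and glycolysis genes (median 0.14), 5 of 8 blood cell genes (median -0.30) and 1 of 3 clock genes (median -0.28). Over all features tested, 8284 of 33318 had an unadjusted p below 0.05 in the same fit. Median centring turned the oxidative phosphorylation and clock medians to 0.73 and 0.39. Carnitine palmitoyltransferase CPT2, which brings fatty acids into mitochondria, was an exception among 21 fatty acid oxidation genes: it measured 9.90, 9.43, 8.98 and 9.25 log2 units at the anastomosis and 8.32, 8.03, 8.31 and 8.49 in the controls, and rose by 1.10 ± 0.20 (adjusted p = 0.00668 in limma), also without each replicate in turn. PDK4 was the other call of that list, while 8.78% of all features were called. In the endoplasmic reticulum list the chaperone CALR rose (0.88 ± 0.22) and the stress factors DDIT3 (-1.61 ± 0.39) and ATF4 (-0.77 ± 0.20) fell, with ATF4 at 0.02 under median centring and none of the 3 called without replicates 1 or 4 (adjusted p from 0.0509 to 0.162). Without replicate 2, CALR (adjusted p = 0.0739) and ATF4 (adjusted p = 0.0788) were lost too.

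The vein segment downstream of the anastomosis was labelled with Cy5 too, so its comparison with the anastomosis holds the dye constant. In that fit no feature passed the adjusted threshold in either direction (0% of 33318 in limma), and 4721 features (14.2%) had an unadjusted p below 0.05. Without replicate 3, in which anastomosis fat genes were high, 747 features were higher and 466 lower, and 1 feature passed without replicate 4. Some genes that led the comparison with the control stood well above the downstream vein as well. ACP5 differed by 3.24, COL11A1 by 2.60, TNN by 2.23, MSR1 by 2.06, TMEM158 by 1.71, CTSD by 1.40 and CD68 by 1.22 on the log2 scale (unadjusted p from 6.37e-05 to 0.009). THBS4 was high in both: its downstream level was 12.02, 13.91, 16.12 and 15.57 log2 units, and the anastomosis minus downstream difference was 1.33 (unadjusted p = 0.168). Genes with smaller differences between these 2 red-labelled sites, picked like those above after their values were seen, included TMSB10 (0.16), FTH1 (0.07), RPS23 (0.03), RGS5 (-0.30), KDR (-0.04), NOTCH4 (0.05), TFPI (-0.15) and HSP70.2 (-0.19), with unadjusted p from 0.243 to 0.905. For all of these the difference from the green-labelled control was called, with sizes given above. The anastomosis samples enter both comparisons. The part of the dye in the differences from the control was not tested.

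The same pair of sites at day 5 gave 3009 higher (9.03%) and 3440 lower (10.3%) calls, with the dyes arranged as at day 14. The change of the difference, day 14 minus day 5, was called for no feature (limma), and 2770 features (8.31%) had an unadjusted p below 0.05. Cell cycle genes had the most members with an unadjusted p below 0.05 for that change among the lists. At day 5, 27 of 29 were higher with a median of 2.37, and at day 14 1 of 29 was, the mitotic kinesin KIF20A (0.53 ± 0.13, adjusted p = 0.0853, 0.052 and 0.0894 without replicates 1, 2 and 4), with a median of 0.45. The change had a median of -1.78 and an unadjusted p below 0.05 for 25 of the 29. Resting fibroblast genes had 11 of 19 members lower at day 5 with a median of -1.87, against -0.62 at day 14, and contractile genes 13 of 19 with a median of -1.86, against -1.32 at day 14 with 4 pairs and -1.96 (14 of 19 lower) without replicate 2. The antigen presentation list had 1 call and a median of 0.12 at day 5, against 7 calls and 1.01 at day 14, and the complement list a median of -0.07 at day 5, against 0.55. Osteoclast genes had a median of 0.44 at day 5, against 1.05. THBS4 differed by 3.14 at day 5 and 6.60 at day 14, COL11A1 by 1.23 and 3.34, CCL21 by -0.18 and 3.13, and C3 by 0.09 and 2.80. SCARA5 differed by -5.84 at day 5 and -3.67 at day 14, and PPL by -4.46 and -3.44. No change passed the adjusted threshold, so these values stand side by side.

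**Figure D5:**
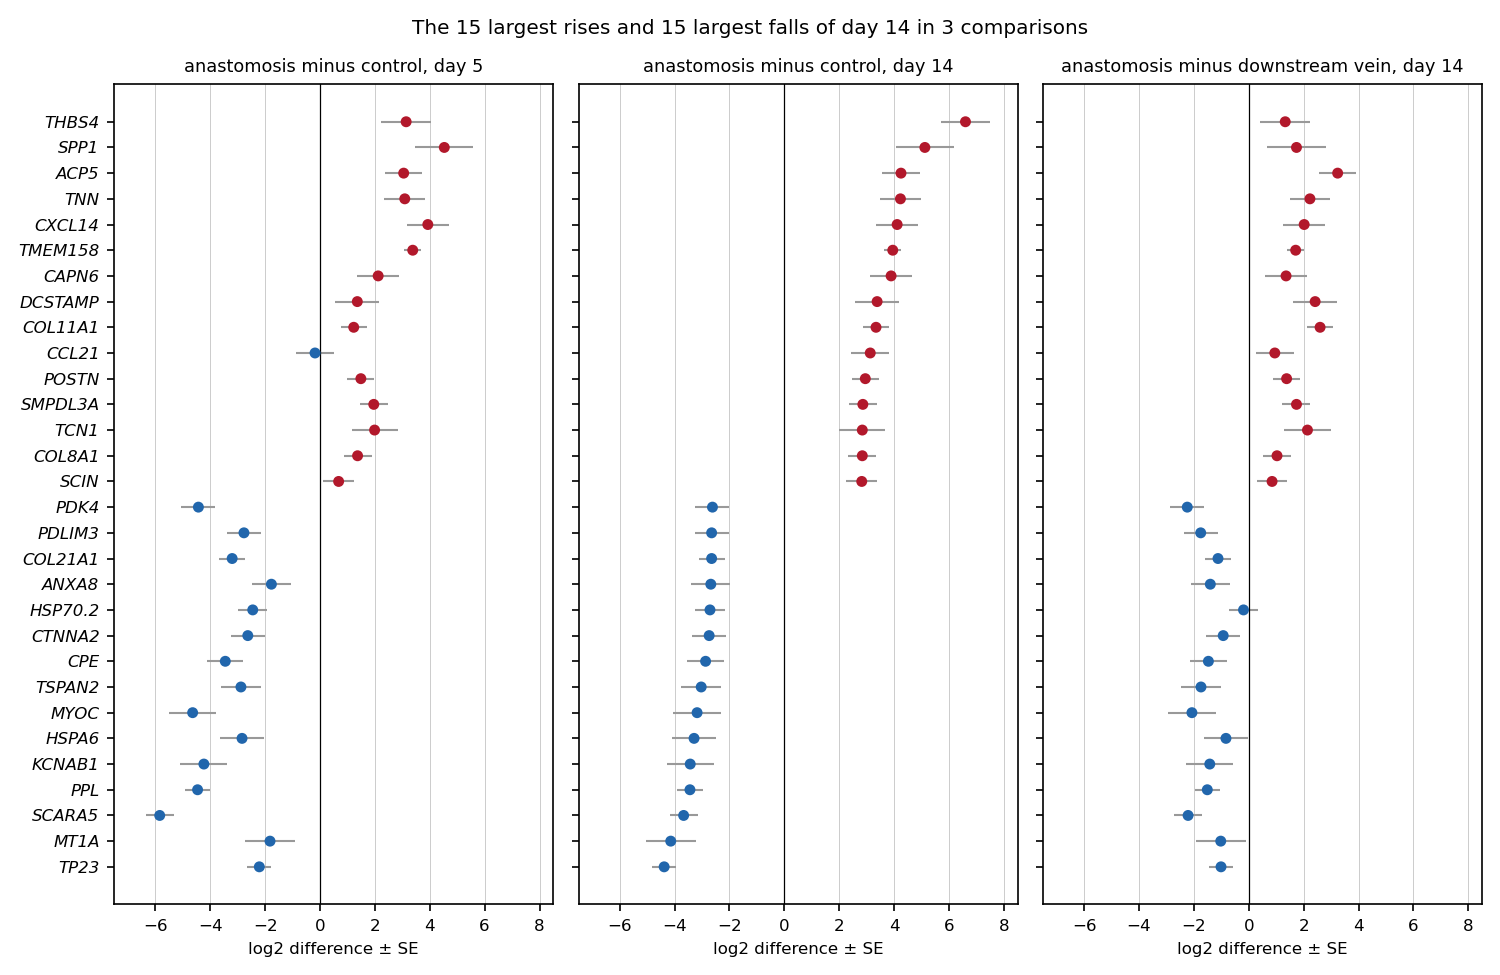
Log2 difference with its SE for the 15 genes with the largest rise and the 15 with the largest fall at day 14, in 3 panels: anastomosis minus control at day 5, the same at day 14, and anastomosis minus downstream vein at day 14 (red above 0, blue below 0). ACP5 lay at 3.24 and HSP70.2 at -0.19 against the downstream vein, and CCL21 was at -0.18 at day 5 and 3.13 at day 14.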

How the data were processed

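RNA of pig vein wall was measured on 2-colour Agilent arrays. The deposited scanner files hold, per the file headers, mean and background intensity of each spot in both colours; the authors' deposited value table holds log2 values per sample, whose column medians lie between 7.34 and 7.42, whose dye orientation matched the scanner values of the same sample and whose exact normalization the sources used here do not give. Background of the intensities was corrected with normexp (offset 50), arrays were normalised by loess within and Aquantile between arrays (limma 3.58.1, R 4.3.3), and control spots were left out. A feature was tested if it stood well above background in 4 or more samples of 24, with the brightest probe standing for a symbol. For some symbols other probes gave smaller differences, and not all of these are printed. Symbols came from the files' accessions and names and from the gene tables given, for 9267 of 43603 probes (21.3%, 6261 symbols).

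One linear model held 24 samples in 6 groups with the 8 sets of samples that share a replicate number and day as blocks, leaving 12 residual degrees of freedom. Differences are log2, two-sided, with Benjamini-Hochberg adjustment over 33318 features. Anastomosis and control samples of 1 number and day share an array, and their day 14 deviations from the group means correlated at 0.7, 0.22, 0.43 and 0.6 for replicates 1 to 4. The labels call the replicates biological, and the names of the deposited files give each replicate number a pig number of its own; nothing else in the labels says that they are separate animals, so p-values measure the spread between these samples. On simulated data with 200 changed features, 73% of changes of 1 and 95% of changes of 2 on the log2 scale were called, with 10 false calls. The simulated noise was independent between features and, apart from a shift shared within each block, between samples. It held no fat-rich sample and no dye effect, so these figures need not hold for the measured data. The number of arrays limits the precision.

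Named genes were the 15 largest rises and falls with an adjusted p below 0.05 that moved 1 way in 4 of 4 pairs, up to 4 called genes per direction of each of 52 lists (the 2 smallest p-values where a list had fewer than 2 calls), 10 features of the other comparisons and the housekeeping list; genes outside this rule are marked in the text or stand as examples of their list, and a few genes that the rule names are not reported here. The comparison's members and the lists were chosen with earlier results of these data known. Alternatives changed the background correction, normalization, filter, probe rule, block, samples in the fit and replicates used, or took the scanner's processed signals or the deposited value table.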

Additional observations from a re-analysis of the deposited data

Results flagged for a closer look

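In 28 of 438 groups of 4 samples looked at (genes named here and summed lists), 1 sample stood far from the other 3, measured as its gap to the nearest sample over the group's whole range; chance gives about 1 in 20 such groups. Jugular control replicate 2 was high for adipocyte genes (20.35 log2 units, the others 16.19 to 16.33, ratio 0.966), foam cell genes (ratio 0.933), interferon response genes (0.874) and hypoxia genes (0.859). The same sample was low for contractile smooth muscle genes (17.68, the others 20.37 to 20.72, ratio 0.885), and for COL21A1 (0.924), KCNAB1 (0.915), CALR (0.914), SPARCL1 (0.914), PDLIM3 (0.903) and VSIG4 (0.881). Control replicate 1 was low for OAS1 (0.951), C1S (11.40, the others 13.24 to 13.46, ratio 0.893), YWHAZ (0.876) and matrix proteases (0.871), and control replicate 3 for CCL21 (0.890).

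Anastomosis replicate 3 was high for adipocyte genes (19.90 log2 units, the others 16.56 to 16.73, ratio 0.949) and CEBPA (0.838), and low for elastic fibre genes (0.935), CTSB (16.44, the others 17.05 to 17.11, ratio 0.920) and ITGA4 (0.844). Anastomosis replicate 4 was high for VSIG4 (0.936), ENG (0.885) and FTH1 (0.845), and low for glucocorticoid response genes (0.904) and matricellular genes (0.836). Anastomosis replicate 1 was low for XBP1 (0.872) and the B and plasma cell list (0.879), which has XBP1 among its 3 genes. The causes were not tested.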

How the results depend on the processing

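The 2926 calls against the jugular control (1580 higher, 1346 lower) became 575 without the replicate block (362 and 213), 57 in a fit of only the 8 samples compared (39 and 18), 1 with replicates 1 and 2 alone and 13705 when arrays were only median-centred. Leaving out 1 replicate gave between 758 and 3905 calls, fewest without replicate 4. Without replicates 2 and 3, chosen after seeing the data, there were 3123. The other alternatives gave between 2643 and 3728. Against the downstream vein 0 calls became between 0 and 1213 with 1 replicate left out and 8 in the deposited value table, and the change between days, with 0 calls, had 1 with the scanner's processed signals and 46 in that table. Of 52 lists 40 had more than 1 call, and between 14 and 44 did with 1 replicate left out. Among single genes, 1992 values under an alternative kept their side of the threshold, with the direction kept where they passed. A further 783 kept the direction but no longer passed, and 48 newly passed. Another 5 reversed with a call in 1 fit or the other, all under median centring: ATF4 (0.02), FKBP5 (0.14), PSMC6 (0.52), RPS15 (0.42) and TOP2B (0.66). Values that passed in neither fit counted as kept whatever their sign, and some of them changed sign, such as YWHAZ and TFRC under median centring. Median centring moved the brightest features by 0.68 and the dimmest by -0.22. Fewer samples enter the fits without a replicate; for the other settings the cause was not tested. The pairing by replicate number stayed in all fits but the one without the block. Where a group was never well above background, a fold is a bound: 29 called features had no such control array and 11 no such anastomosis array.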
